A study of Mus musculus with 116 samples.

Results

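The Igk locus of the mouse carries 162 annotated V segments on chromosome 6 in the GRCm38 (mm10) RefSeq list, and 60 of them (37.0%) are annotated as V segment pseudogenes. These 60 pseudogenes were taken by annotation alone, and a junction was counted as theirs when it lay within 100 bp of one. Of 1374899 junctions read from the Jk1 coding end in 42 libraries, 80594 met that rule. No junction in the lists lay more than 543 bp from a V segment, and 1137 (0.0827%) lay beyond 100 bp of every one. Whether the lists were filtered to V segments before deposit is not stated in the sources used. Shares here are therefore shares of the deposited junctions. Of the 60 pseudogenes, 37 were joined in at least 1 library, where joined means that at least 1 junction was assigned to the segment. The other 102 V segments of the list, called functional segments here because they lack the pseudogene annotation, were all joined.

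The cells were lines of mouse pro-B cells, an early stage of B cell development, grown out with the v-Abl oncogene. Every group carried the Emu-Bcl2 transgene (a survival gene under an immunoglobulin enhancer) and was arrested in G1 with 3 µM STI-571, a v-Abl kinase inhibitor, for 96 h. The series holds 116 samples, of which the 42 used here form 14 groups of 3 replicates with no nuclease added. Genotypes were Emu-Bcl2 alone (WT, clones A and B), Emu-Bcl2 Ku70-/- (clones A1 and B1), Emu-Bcl2 Lig4-/- (clone A1 in separate sets, the second labelled b, and clones B1 and C), Emu-Bcl2 Lig4-/- Ku70-/- (double mutant, clones A1_1 and C1), Emu-Bcl2 Lig4-/- Ku70-/- +Ku70 (the same clones) and Emu-Bcl2 Lig4-/- +Lig4 (clones A1 and C). Each group was therefore 1 clone, and clones whose labels share a first letter are called a lineage. How clones were derived, and whether replicates were separate cultures, is not given in the labels, so p-values measure the spread between libraries, which may be technical. Rows were as deposited after the authors normalised the libraries of lineage A to 167151, lineage B to 600000 and lineage C to 377068 raw reads, so row numbers can be compared within a lineage only.

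V(D)J recombination assembles antigen receptor genes from V and J segments. The RAG recombinase cuts beside a recombination signal, which consists of a heptamer, a spacer and a nonamer, and leaves a coding end on the segment and a signal end on the flank. Classical non-homologous end joining, in which the Ku70/Ku80 heterodimer binds ends and ligase IV (Lig4) seals them, normally joins coding end to coding end. A V pseudogene has lost the ability to encode a light chain, but it can still be cut where its signal is intact. Plus-strand V segments join Jk1 by deletion and minus-strand segments by inversion.

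The coding end and the flanking signal of the 10 most joined pseudogenes are shown first, since a RAG cut depends on them. The lower-case letters before the first capitals are the last 30 bases of the segment, the first run of capitals is the heptamer and the second is the nonamer, after a spacer of 12 bases. They were read from the deposited reads as a consensus: coding-orientation reads up to the annotated end and opposite-orientation reads beyond it, with at least 3 reads and 75% agreement at each base. Coordinates are GRCm38 and strands are those inferred from the WT junctions.
Igkv4-56 (chr6:69587267-69587324, minus strand): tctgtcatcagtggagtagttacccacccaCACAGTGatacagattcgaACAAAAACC
Igkv4-77 (chr6:69110876-69110933, minus strand): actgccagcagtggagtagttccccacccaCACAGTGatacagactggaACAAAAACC
Igkv2-116 (chr6:68152588-68152645, plus strand): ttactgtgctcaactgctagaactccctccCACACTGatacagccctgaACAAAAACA
Igkv4-75 (chr6:69156090-69156147, minus strand): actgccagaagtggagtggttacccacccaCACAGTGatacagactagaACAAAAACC
Igkv11-106 (chr6:68339966-68340023, plus strand): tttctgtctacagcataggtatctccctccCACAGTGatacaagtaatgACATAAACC
Igkv11-114 (chr6:68164894-68164951, plus strand): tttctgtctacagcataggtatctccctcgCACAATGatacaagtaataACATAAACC
Igkv12-40 (chr6:69879322-69879379, minus strand): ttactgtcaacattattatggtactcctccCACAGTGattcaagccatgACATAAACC
Igkv14-126 (chr6:67896613-67896670, plus strand): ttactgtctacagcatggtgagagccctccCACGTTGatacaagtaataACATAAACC
Igkv4-83 (chr6:68961350-68961407, minus strand): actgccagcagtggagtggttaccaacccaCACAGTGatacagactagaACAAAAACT
Igkv1-108 (chr6:68312330-68312387, plus strand): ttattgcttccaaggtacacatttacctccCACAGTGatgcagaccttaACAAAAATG

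The pseudogenes that were joined most kept a signal close to the canonical heptamer CACAGTG and nonamer ACAAAAACC. Among the 10 shown, Igkv2-116 and Igkv11-114 matched the heptamer at 6 of 7 bases and Igkv14-126 at 5, and the other 7 matched it throughout. The search for the best match on the coding strand of each segment gave a signal for 13 pseudogenes and 93 functional segments with enough reads. CACAGTG was found in 9 of the 13 pseudogenes (69.2%) and 79 of the 93 functional segments (84.9%), and ACAAAAACC in 3 (23.1%) and 31 (33.3%). A nonamer matching at 7 or more of 9 bases was found in 92.3% and 93.5%. These are segments with opposite-orientation reads, so they are not a sample of all segments, and the signals of unjoined pseudogenes were not used here. The exception among the 13 was Igkv3-8, where the best heptamer matched at 1 base. That match began at base 7 beyond the annotated end and rested on as few as 3 reads. Stretches with an uncalled base were skipped in the search, and the full stretch printed for the 10 segments above could not be read. Whether Igkv3-8 keeps a heptamer beside its end is therefore not known from these reads. It remains among the 13 in the percentages above.

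Joining was spread very unevenly over the 60 pseudogenes. In all libraries together 25 had at least 10 rows, 16 at least 100 and 10 at least 1000, and 10 segments held 96.7% of the rows assigned to a pseudogene as the nearest segment (80096 rows). The other 498 rows of the rule were nearer to functional Igkv3-9, which ends 94 bp from the start of Igkv3-8. They are among 783 rows of the rule near Igkv3-8. The group tests of pseudogene share and joint structure include them, with orientation and end distance judged against Igkv3-8. Values of single segments leave them out. By distance, 74945 rows lay inside a pseudogene, 2770 at 1 to 10 bp and 2879 at 11 to 100 bp. Just outside the limit, up to 200 bp, lay 134 rows, of which 89 were inside a functional segment. No row was found for 23 pseudogenes, and 0 of 1374899 rows allows a share of up to 0.000218% of the deposited rows. That limit does not cover rows that a filter before deposit may have removed. In the 6 WT libraries 33 pseudogenes had a row and 15 had one in every library, against 102 and 96 of the 102 functional segments.

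The unjoined pseudogenes were Igkv1-136, Igkv14-134-1, Igkv14-118-2, Igkv2-107, Igkv15-101-1, Igkv15-97, Igkv2-95-1, Igkv2-95-2, Igkv2-93-1, Igkv13-89-1, Igkv13-76, Igkv13-74-1, Igkv13-73-1, Igkv13-71-1, Igkv13-62-1, Igkv13-61-1, Igkv13-57-1, Igkv13-55-1, Igkv13-54-1, Igkv12-49, Igkv5-40-1, Igkv8-22 and Igkv3-11. Igkv14-126-1, Igkv13-80-1, Igkv13-78-1, Igkv13-56-1, Igkv12-42 and Igkv3-6 were joined in 1 library each. The first 4 had 1 or 2 rows each, all in replicate 3 of Ku70-/- clone B1, and no strand could be assigned. The single row of Igkv3-6 lay 581 bp from its annotated coding end. All 144 WT rows of Igkv4-65 and all 63 of Igkv8-31 had inserted bases. A row assigned to a segment is thus not always a typical join at its coding end. The family numbers that open these names group V segments by sequence. All 5 pseudogenes of family 4 were joined, and they held 43.7% of the pseudogene rows. Family 11 (3 of 3 joined, 20.2% of rows), family 2 (3 of 7, 17.6%) and family 12 (5 of 6, 9.53%) followed. Family 13 has the most pseudogenes, 17, but 7 were joined and they held 253 rows, 0.316%. These shares pool the rows of all libraries, and WT clone B supplied 890003 of the 1374899 rows. With WT clones A and B weighted equally, families 4, 11, 2 and 12 took 3.25, 1.09, 0.820 and 0.412% of all WT rows. Joined and unjoined pseudogenes had median lengths of 467 and 455 bp.

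**Figure D1:**
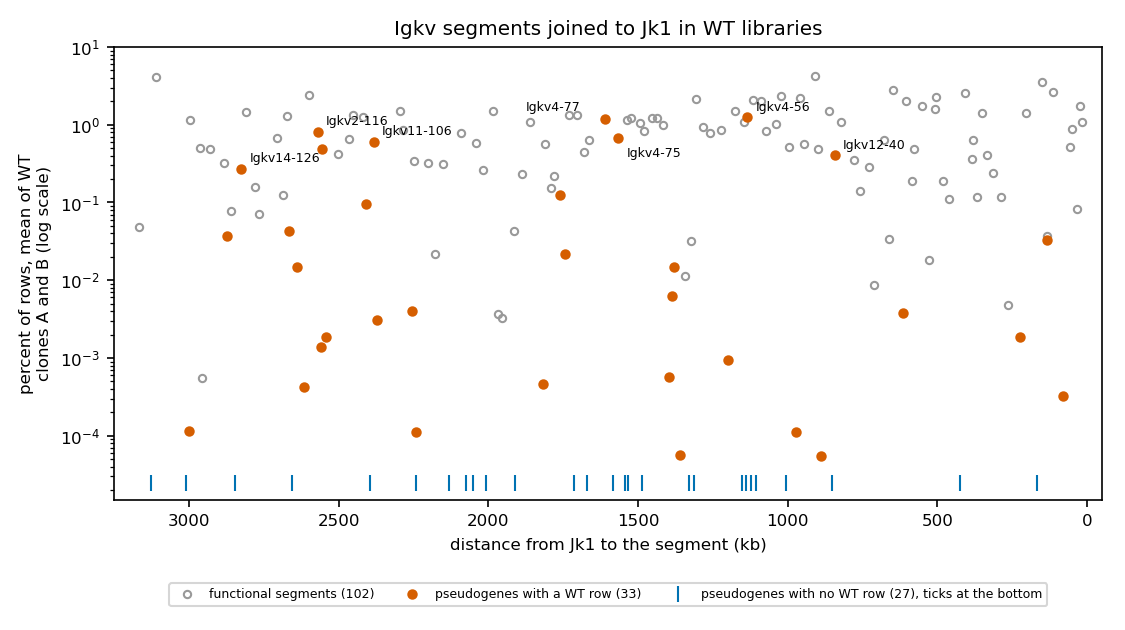
Share of a library's rows that each V segment took in WT cells, as the mean of clones A and B on a log scale, against distance from Jk1 in kb; orange points are the 33 pseudogenes with a WT row, blue ticks the 27 without one, and open circles the 102 functional segments. The leading pseudogenes lie among the functional segments, the remaining ones mostly below them, and joined and unjoined pseudogenes are interleaved along the locus.

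In WT cells the leading pseudogenes had shares within the range of the functional segments. Igkv4-56 (gene ID 619743, chr6:69587295-69587810, 1135 kb from Jk1) had 1.64, 1.28 and 1.44% of rows in the clone A libraries and 1.07, 1.05 and 1.06% in clone B, a mean of 1.26% that ranked 30 among all 162 segments. Clone A lay above clone B without overlap. Igkv4-77 (667621, chr6:69110904-69111432) had 1.74, 1.11 and 1.27% in clone A and 0.944, 0.969 and 1.01% in clone B. The median functional segment had 0.645% and the highest 4.23%, and Igkv4-56, Igkv4-77, Igkv2-116 and Igkv4-75 lay above that median.

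Igkv2-116 (434026, chr6:68151885-68152617, 2570 kb from Jk1) ran the other way, with 0.367, 0.340 and 0.708% in clone A and 1.15, 1.16 and 1.16% in clone B. Igkv4-75 (692141, chr6:69156118-69156659) differed most between the WT clones, at 1.16, 1.21 and 1.32% in clone A and 0.129, 0.126 and 0.121% in clone B. Neither segment's clones overlapped. Igkv11-106 (628293, chr6:68339527-68339995) did overlap, at 0.473, 0.806 and 0.725% against 0.534, 0.531 and 0.574%. Mean WT shares then fell from 0.482% for Igkv11-114 (692173, chr6:68164459-68164923) and 0.405% for Igkv12-40 (435904, chr6:69879350-69879819) to 0.273% for Igkv14-126 (628127, chr6:67896177-67896642), 0.126% for Igkv4-83 (692145, chr6:68961378-68962019) and 0.0949% for Igkv1-108 (628272, chr6:68312054-68312359). The eleventh, Igkv9-119, had 0.0431%. Igkv3-8, 133 kb from Jk1, had 0.0332%.

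**Figure D2:**
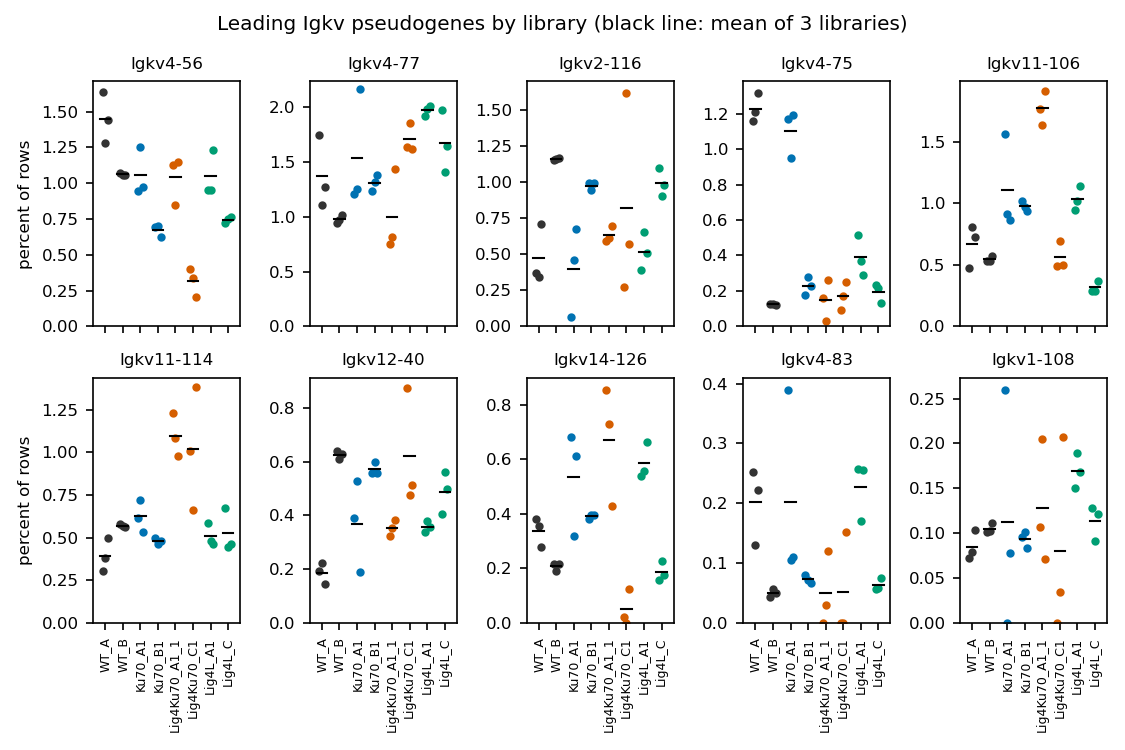
Percent of each library's rows that joined the 10 leading pseudogenes, 1 panel per segment with its own axis; points are libraries, black lines the mean of 3, and group names are those of the labels (Lig4Ku70 is Lig4-/- Ku70-/-, Lig4L is Lig4-/- +Lig4). Igkv4-75 is high in WT clone A and Ku70-/- clone A1 and low in the other groups, and Igkv2-116 and Igkv12-40 are higher in WT clone B than in WT clone A.

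Pseudogenes took a smaller share of the junctions in Lig4-/- cells than in WT cells, and the share in Ku70-/- cells did not pass the test against WT. WT libraries had 6.80, 6.10 and 6.92% in clone A (3175 to 3674 pseudogene rows) and 5.64, 5.62 and 5.73% in clone B (16433 to 17528). Ku70-/- libraries had 7.41, 6.55 and 7.63% in clone A1 (228 to 487) and 5.94, 6.07 and 5.93% in clone B1 (2981 to 3638). As whole groups they overlapped in lineage A and did not in lineage B, and between libraries of the same replicate number Ku70-/- was higher in 6 of 6 pairs, by 0.197 to 0.707 percentage points. Within sequencing runs the difference was 0.582 in lineage A (2 runs, 0.457 to 0.707) and 0.313 in lineage B (1 run). The mean difference of 0.452 percentage points gave p = 0.06 in the exact permutation test within lineages (n = 6 against 6, two-sided) and an adjusted p of 0.135. Same-numbered libraries deviated together in lineage A but not in lineage B, and with all 6 paired by number the difference gave p = 0.0312 in the exact sign-flip test, the smallest that 6 pairs allow, and an adjusted p of 0.0703. Clone B1 also had almost no joins to 5 functional segments near Jk1, Igkv3-7, Igkv3-5, Igkv3-4, Igkv3-3 and Igkv3-2, named after their values were seen. They held 6.96, 7.01 and 6.98% of the WT clone B rows and 0.00199, 0 and 0.00493% of the clone B1 rows, and fewer such rows raise the share of every other segment. With these 5 left out of all libraries, lineage B had 6.07, 6.04 and 6.16% in WT and 5.94, 6.07 and 5.93% in Ku70-/-, which overlap, and the difference over both lineages was 0.247 points (exact permutation p = 0.34, adjusted 0.6). With identical junctions counted once per library the difference turned to -1.08, and with only rows inside a segment to -1.05. Both gave p = 0.005 by the exact permutation test. Identical meant the same junction, strand, bait end and overlap or insert length, so equal-length inserts of different sequence counted as 1. Libraries held 47130 to 305846 rows in WT and 3075 to 60811 in Ku70-/-, and how inserts and depth affect that count was not tested. The second setting leaves out most opposite-orientation rows of Ku70-/- (97.5% lay beyond the annotated end), while the library total keeps them. Adjusted p-values are Benjamini-Hochberg values over 18 comparisons of pseudogene rows between groups.

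In Lig4-/- cells joining to Jk1 was itself rare, with 3 to 74 rows in a library, and pseudogenes took 9 of 490 rows in 12 libraries (1.84%, exact 95% interval 0.843 to 3.46%). The 9 rows were 3 at Igkv4-56, 2 at Igkv12-40 and 1 each at Igkv4-75, Igkv2-116, Igkv4-65 and Igkv11-106. None of the 8 in lineages with WT libraries had the same junction as a WT row of its sequencing run. The lineage C row, at Igkv11-106, had no WT rows in its run. Rows of other genotypes in these runs were not compared. Lineage A has separate sets of 3 Lig4-/- clone A1 libraries, and each comparison used 1 set. Against WT it was the set without the label b, and the Lig4-/- share differed by -4.57 percentage points (exact permutation p = 0.005, adjusted 0.0129, n = 6 against 6), or by -4.21 with the b set. The exact permutation p was the same with both sets, and in neither set nor in clone B1 did a Lig4-/- library reach the lowest WT library of its lineage. A single row is worth 1.35% or more of any of these libraries, and intervals cover counting error only, since the reads carry no molecular identifiers and copies of 1 molecule cannot be told apart.

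The pseudogene share in the double mutant stood near that of Ku70-/- cells. It was 7.12, 6.52 and 7.59% in clone A1_1 (133 to 318 rows) and 5.00, 6.20 and 5.54% in clone C1 (223 to 400), above Lig4-/- by 4.93 points (exact permutation p = 0.005, adjusted 0.0129) with clone C and the b set of clone A1 as the Lig4-/- libraries, and by 5.29 with the other set and the same p. That call was lost with identical junctions counted once, at 3.24 points and an adjusted exact permutation p of 0.246. Against Ku70-/- in lineage A the difference was -0.119 points (exact permutation p = 0.7, smallest possible 0.1). Libraries with Lig4 added back had 6.91, 7.05 and 7.44% in clone A1 and 5.89, 5.06 and 5.39% in clone C, 5.25 points above Lig4-/- (exact permutation p = 0.005, adjusted 0.0129), here with the set without b, and 4.90 with the b set. With identical junctions counted once that difference was 4.79 points (adjusted exact permutation p = 0.0729). Double mutant libraries with Ku70 added back held 2 to 41 pseudogene rows, 85 of 1818 in all (exact 95% interval 3.75 to 5.75%), and the change from the double mutant was -1.04 points (exact permutation p = 0.38).

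**Figure D3:**
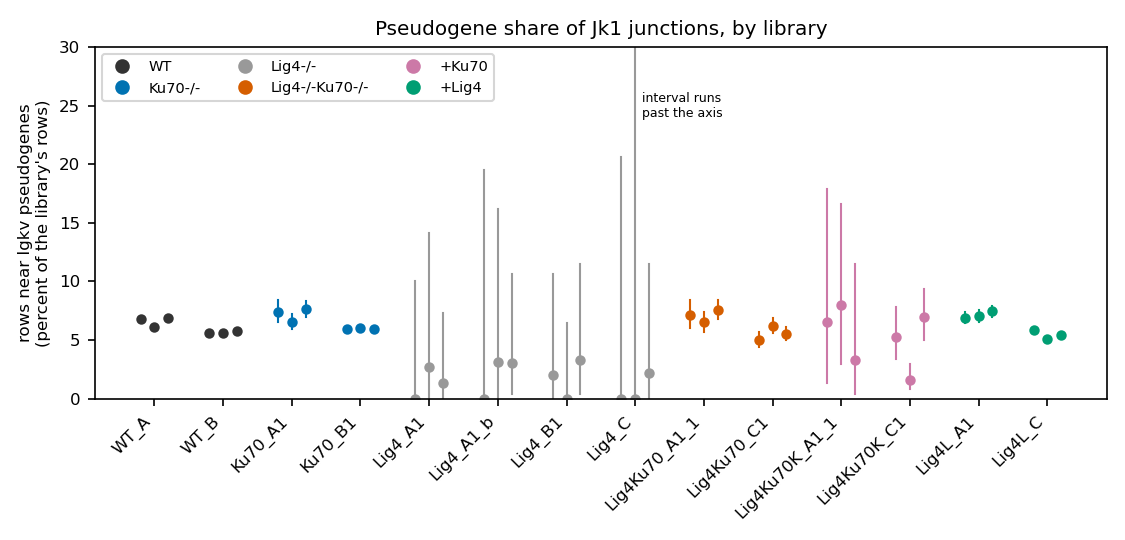
Percent of each library's rows near an Igkv pseudogene, with exact 95% binomial intervals, for the 3 libraries of each group (Lig4Ku70K is Lig4-/- Ku70-/- +Ku70). WT, Ku70-/-, double mutant and +Lig4 libraries lie between 5.00 and 7.63%, and the Lig4-/- libraries lie between 0 and 3.33% with wide intervals, 1 of which runs past the axis.

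The structure of pseudogene joins differed between WT and Ku70-/- cells in all 4 measures used. These were the share of rows in coding orientation, the share with at least 2 bp of overlap between the aligned bait and prey (microhomology), the share with inserted bases between them, and the share of coding-orientation rows within 10 bp of the annotated end. Orientation was judged against the strand given by the majority of WT rows, so the WT level is partly by construction, and +Lig4 libraries gave the same strand for 124 of 126 segments. Libraries with fewer than 10 pseudogene rows were left out of these measures, which removed all Lig4-/- libraries and the +Ku70 libraries of clone A1_1.

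Coding orientation made up 99.9, 99.9 and 99.6% of pseudogene rows in WT clone A and 99.7, 99.8 and 99.7% in clone B. It fell to 75.9, 85.5 and 68.0% in Ku70-/- clone A1 and to 72.6, 72.6 and 72.5% in clone B1. The groups did not overlap, and the difference was -25.3 percentage points (exact permutation p = 0.005, adjusted 0.0129, n = 6 against 6). Within sequencing runs it was -23.0 in lineage A (2 runs, -31.6 to -14.5) and -27.1 in lineage B.

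Inserted bases were found in 58.9, 56.8 and 60.6% of WT clone A rows and in 40.2, 40.2 and 40.0% of clone B rows. In Ku70-/- they were found in 0.439, 1.08 and 3.90% of clone A1 rows and 1.85, 2.06 and 1.44% of clone B1 rows, which is -47.7 points from WT (exact permutation p = 0.005, adjusted 0.0129). WT insertions were short, with a median of 2 bp and 74.0% of 1 or 2 bp. The commonest single insert was C, 15.4% of pseudogene insertions and 17.2% of those at functional segments in WT, and inserted bases were 58.5% G or C at pseudogenes and 58.6% at functional segments.

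Microhomology moved the opposite way. It made up 0.655, 0.189 and 0.817% of WT clone A rows and 1.02, 1.21 and 1.01% of clone B rows, against 24.6, 22.8 and 18.7% in Ku70-/- clone A1 and 17.8, 19.4 and 17.4% in clone B1. The rise was 19.3 points (exact permutation p = 0.005, adjusted 0.0129), and among coding-orientation rows alone it was 20.4. Loss of bases also rose. The share of coding joins within 10 bp of the end was 97.2, 97.2 and 97.1% in WT clone A and 97.5, 97.2 and 97.3% in clone B, but 43.4, 37.4 and 29.6% in Ku70-/- clone A1 and 40.4, 38.0 and 40.8% in clone B1. The difference was -59.0 points (exact permutation p = 0.005, adjusted 0.0129). For these 3 measures, as for orientation, the WT and Ku70-/- libraries did not overlap. Paired by replicate number, each of the 4 differences gave p = 0.0312 in the exact sign-flip test, the smallest that 6 pairs allow (adjusted 0.0703).

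**Figure D4:**
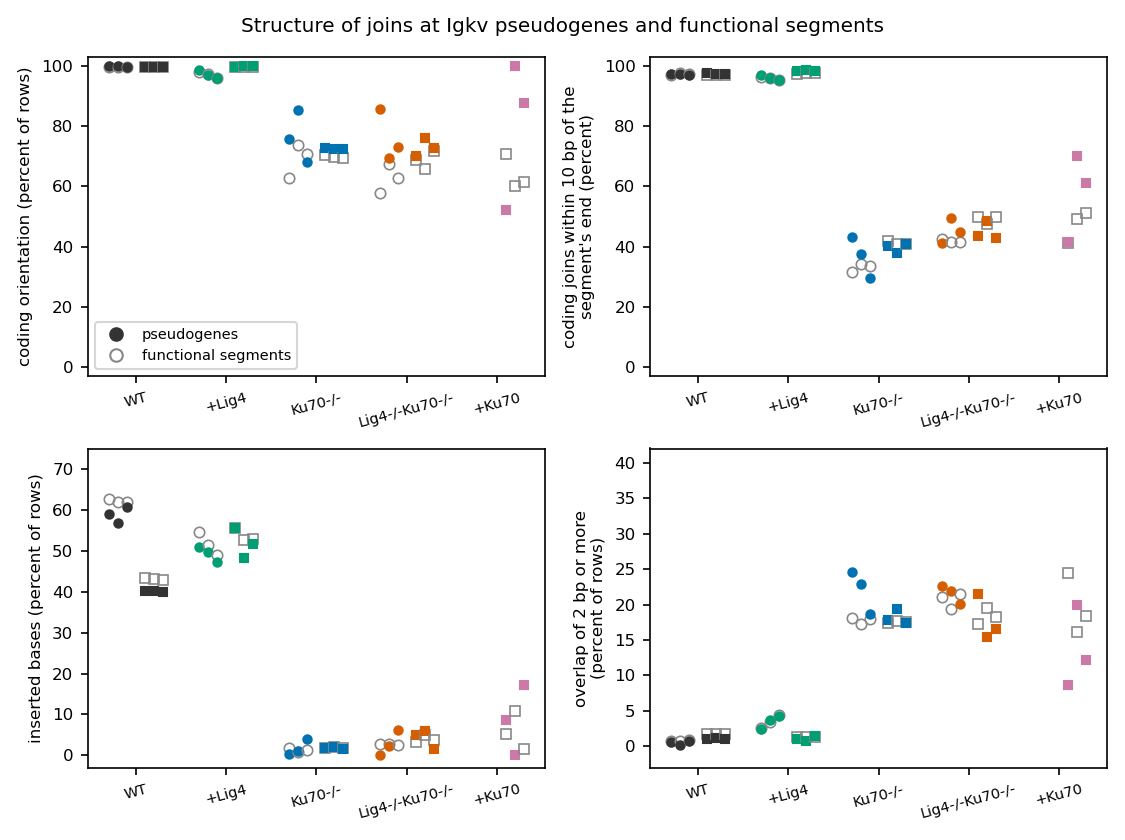
Orientation, nearness to the segment's end, insertions and overlap of joins, by library with at least 10 pseudogene rows; filled symbols are pseudogenes, open symbols functional segments of the same library, circles are lineage A, and squares are lineage B for WT and Ku70-/- and lineage C for the other groups. WT and +Lig4 libraries stand apart from Ku70-/- and double mutant libraries in all 4 panels, and filled and open symbols of a library lie close together beside that gap.

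In these measures the double mutant lay near Ku70-/-, and libraries with Lig4 added back lay near WT. Double mutant libraries had 69.5 to 85.7% of rows in coding orientation, 15.4 to 22.6% with microhomology, 0 to 6.29% with insertions and 41.2 to 49.7% of coding joins near the end. In lineage A, where both were measured, the differences from Ku70-/- were -0.384, -0.480, 1.04 and 8.45 points, and p lay between 0.2 and 1 in exact permutation tests that cannot go below 0.1. In +Lig4 libraries the ranges were 95.9 to 99.9%, 0.757 to 4.22%, 47.3 to 55.6% and 95.3 to 98.6%. The 3 +Ku70 libraries of clone C1 rested on 10 to 41 rows, and orientation there ran from 52.2 to 100%. Their differences from the double mutant, 7.06 points for orientation, -4.17 for microhomology, 4.43 for insertion and 12.6 for end share, gave exact permutation p between 0.4 and 0.7, with 0.1 the smallest possible.

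The junctions themselves show what these shares mean. The commonest joint of Igkv4-56 is printed along the Jk1 coding strand, with 20 bases of the pseudogene side before the joint and 20 of the Jk1 side after it, and capitals mark bases shared by both alignments.
Igkv4-56, WT, coding orientation: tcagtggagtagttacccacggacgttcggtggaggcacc
Igkv4-56, Lig4-/- +Lig4, coding orientation: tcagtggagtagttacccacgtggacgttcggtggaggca
Igkv4-56, Ku70-/-, coding orientation: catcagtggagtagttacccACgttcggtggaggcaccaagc
Igkv4-56, Lig4-/- Ku70-/-, coding orientation: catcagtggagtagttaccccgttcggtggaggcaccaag
Igkv4-56, WT, opposite orientation: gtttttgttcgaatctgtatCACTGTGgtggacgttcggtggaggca
Igkv4-56, Ku70-/-, opposite orientation: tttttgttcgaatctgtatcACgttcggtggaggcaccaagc

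The WT coding joint lacked 3 bp of the pseudogene's end and made up 947 of 11622 coding rows (8.15%), in all 6 libraries, among 1009 distinct joints. The +Lig4 joint lacked the same 3 bp and made up 72 of 957 rows. The Ku70-/- joint used 2 shared bases and was 41 of 923 rows in 3 libraries, and the double mutant joint lacked 5 bp and was 10 of 105 rows, all from 1 library. The opposite-orientation joints hold the spacer of Igkv4-56 and the adjoining bases of its nonamer on the reverse strand. The WT joint also holds the whole heptamer, whereas in the Ku70-/- joint only the spacer-side 3 bases of the heptamer stand before Jk1 sequence. Both joints join the signal side of the pseudogene to the Jk1 coding end. In WT, 5 of 25 such rows had a 7-bp overlap that is the heptamer itself, because the bait alignment ran past the Jk1 end into the heptamer of Jk1, so these rows count as microhomology. Across all pseudogenes, bait alignments past the Jk1 end made up 16.8% of WT microhomology rows and 1.00% of those in Ku70-/-.

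Over all pseudogenes, WT coding joins had lost a median of 3 bp from the annotated end (quartiles 1 and 4, 95th percentile 7), and +Lig4 joins had the same median and quartiles. Ku70-/- coding joins had lost 14 bp (quartiles 7 and 29, 95th percentile 50) and double mutant joins 12 bp (6 and 32, 58). The Jk1 side moved likewise, with a median of 1 bp lost in WT and +Lig4, 15 in Ku70-/- and 17 in the double mutant, and more than 10 bp lost in 0.539, 1.18, 64.9 and 69.3% of rows. Opposite-orientation rows in Ku70-/- numbered 3055, of which 97.5% lay beyond the annotated end and 78.5% within the 28 bp that a heptamer, 12-bp spacer and nonamer span. In the double mutant the 422 such rows lay beyond the end in 93.8% and within 28 bp in 73.0%. The 160 opposite-orientation rows in WT lay beyond the end in 74.4%, at a median of 1 bp.

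**Figure D5:**
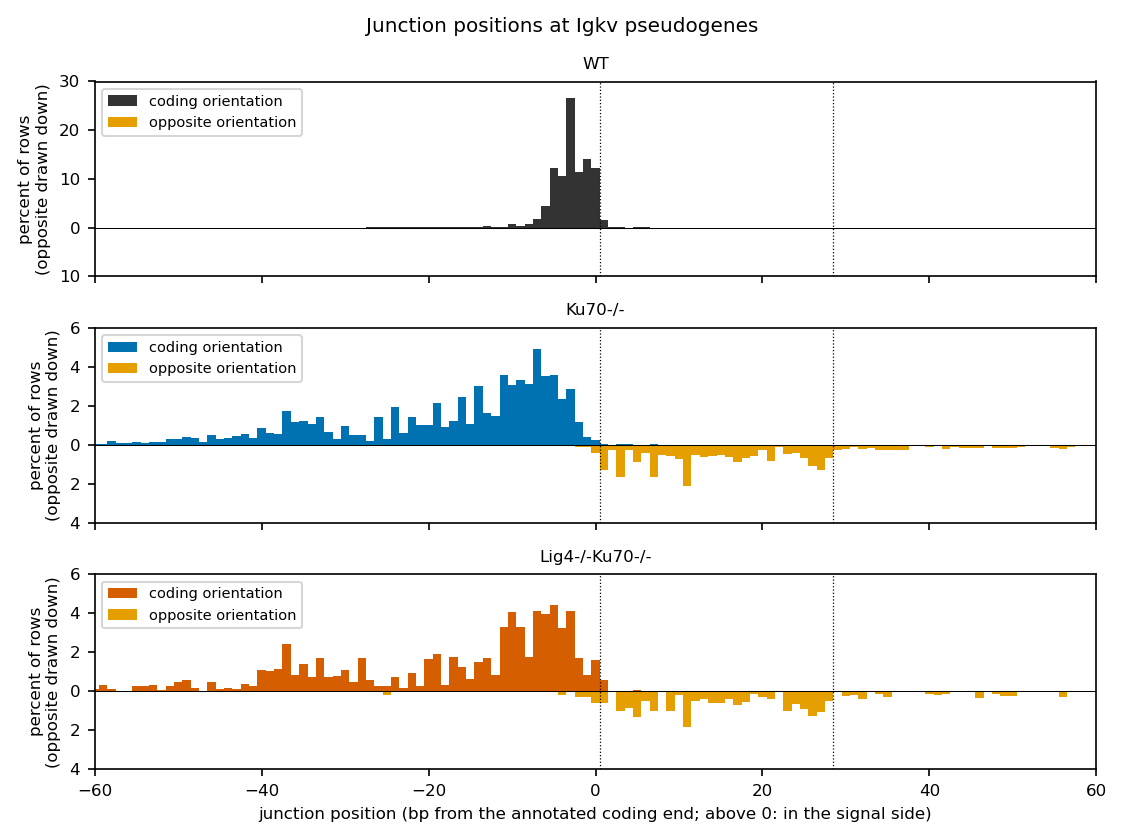
Position of pseudogene junctions relative to the annotated coding end in WT, Ku70-/- and double mutant libraries, as percent of rows per bp with coding orientation upward and opposite orientation downward, on axes that differ between panels; dotted lines mark the end and 28 bp beyond it. WT joins pile up at 3 bp inside the end (26.6% of rows), whereas Ku70-/- and double mutant joins spread farther into the segment, and their opposite-orientation joins fill the signal.

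In Ku70-/- and double mutant cells opposite-orientation joins made up more of the rows at minus-strand than at plus-strand pseudogenes, on average. In Ku70-/- opposite-orientation rows were 32.7 ± 7.40% (SD, n = 6 libraries, 19.8 to 42.9) at the minus-strand pseudogenes and 16.3 ± 6.40% (5.71 to 21.9) at the plus-strand ones. The double mutant gave 38.2 ± 8.65% (25.7 to 49.3) and 14.8 ± 8.47% (1.14 to 24.3). Functional segments had the same split, 37.2 and 17.4% in Ku70-/- and 42.3 and 17.2% in the double mutant. At far lower levels the mean was also higher on the minus strand in +Lig4 libraries, at 1.86 and 0.916% for pseudogenes and 1.97 and 0.760% for functional segments, and at WT functional segments, at 0.340 and 0.217%. Only WT pseudogenes, of these 8 pairs of means, ran the other way, with 0.203% on the minus and 0.274% on the plus strand. These are descriptions without a test, made after the values were seen. The library ranges of the pseudogene strands overlapped in Ku70-/- and did not in the double mutant. Minus-strand pseudogenes held 59.5 ± 9.83% (SD, n = 6) of the WT rows of pseudogenes with a strand.

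Each of the 10 leading pseudogenes followed the common pattern, with a spread between members. Opposite-orientation rows were 0.134 to 0.582% in WT and 14.9 to 47.3% in Ku70-/- (median 27.9). Insertions were 39.1 to 57.5% in WT and 0 to 2.54% in Ku70-/-, and microhomology 0.344 to 5.03% and 7.43 to 24.3%. The highest WT microhomology was that of Igkv14-126. Among coding joins, the share near the end was 93.4 to 99.5% in WT and 26.9 to 62.8% in Ku70-/-. In WT Igkv11-114 had a 1-bp overlap in 27.9% of rows, more than any other of the 10. Its commonest coding junction position was the annotated end itself, with a median of 2 bp lost. A base shared with Jk1 counts as kept by the segment in these positions.

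Pseudogenes and functional segments of the same libraries were compared in 16 exact sign-flip tests over 6 libraries each. None passed after adjustment (smallest adjusted p 0.167), but the design could hardly pass one, since at least 10 of the 16 tests would have had to reach the smallest possible p. It was reached by 3 tests. WT pseudogene joins had less microhomology than functional ones, 0.817 against 1.29%, in 6 of 6 libraries, and fewer insertions, by 3.15 points in 6 of 6 (exact p = 0.0312 for both, the smallest that 6 libraries allow). Library differences ran from -0.784 to -0.00945 points for microhomology and from -5.01 to -1.38 for insertions. With identical junctions counted once the microhomology difference turned to 0.0281. In the double mutant, coding orientation was 74.5% at pseudogenes and 65.8% at functional segments, higher at pseudogenes in 6 of 6 libraries by 0.875 to 27.9 points (exact p = 0.0312, adjusted 0.167). In Ku70-/- the same difference was 4.98 points, in 5 of 6 libraries (exact p = 0.125).

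Single pseudogenes changed their share of rows between genotypes, within a locus where many segments did. In the limma fit of log2 usage (rows plus 0.5, per 10000 rows) 31.8% of the 110 segments tested passed an adjusted p of 0.05 for Ku70-/- against WT. Of the 60 pseudogenes 14 had enough rows to be tested, and 3 passed, 2 higher (15.5% of all segments) and 1 lower (16.4%). The median log2 change was 0.26 over the 14 and -0.05 over all 110. The other 11 tested pseudogenes did not pass, and the share of pseudogenes called was not above that of all segments.

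Igkv11-106 was higher in Ku70-/-, at 1.56, 0.916 and 0.862% in clone A1 and 1.02, 0.969 and 0.937% in clone B1, above every WT library of its lineage. Its log2 difference in the limma fit was 0.78 ± 0.17 (SE, adjusted p = 0.00471). Igkv14-126 had 0.683, 0.317 and 0.611% in clone A1 and 0.382, 0.395 and 0.396% in clone B1, against 0.380, 0.357 and 0.279% in WT clone A and 0.217, 0.191 and 0.215% in clone B. These groups overlapped in lineage A, and the log2 difference was 0.77 ± 0.21 (limma, adjusted p = 0.0115), which fell to 0.19 (adjusted p = 0.369) with identical junctions counted once. Igkv4-56 was lower, with 0.943, 1.25 and 0.971% in clone A1 and 0.691, 0.700 and 0.622% in clone B1, below every WT library of its lineage, and its log2 difference was -0.56 ± 0.11 (limma, adjusted p = 0.00278).

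Between the double mutant and Ku70-/- in lineage A, 14.4% of 104 segments passed, and 1 of 12 tested pseudogenes did, with none higher (3.85% of all segments). Igkv4-75 had 0.161, 0.0292 and 0.263% in the double mutant and 1.17, 0.951 and 1.19% in Ku70-/- clone A1, without overlap. The log2 difference was -3.08 ± 0.61 (SE, limma, adjusted p = 0.00024), in a direction in which 10.6% of all segments passed. Its family 4 neighbours, named after their values were seen, did not move together. Going away from Jk1, pseudogene Igkv4-77 had -0.61 and did not pass (limma, adjusted p = 0.194), functional Igkv4-78 fell by 2.55 and Igkv4-79 by 2.04 on the log2 scale (limma, adjusted p = 0.00693 and 0.0449), Igkv4-80 had -0.69 and did not pass (adjusted p = 0.132), and Igkv4-81 fell by 0.98 (adjusted p = 0.0293). Functional Igkv4-74, on the side of Jk1, had -0.57 (limma, adjusted p = 0.253). Igkv4-75 was also low in clone C1 (0.0897, 0.170 and 0.249%) and in +Lig4 clone A1 (0.513, 0.369 and 0.292%), and no row at it was found in the +Ku70 libraries. Clone and genotype cannot be told apart here.

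The leading pseudogenes of other genotypes came from the same set of 10. By mean over clones, Ku70-/- was led by Igkv4-77 (1.42%), Igkv11-106 (1.04%), Igkv4-56 (0.863%), Igkv2-116 (0.686%) and Igkv4-75 (0.666%). The double mutant was led by Igkv4-77 (1.35%), Igkv11-106 (1.17%), Igkv11-114 (1.06%), Igkv2-116 (0.725%) and Igkv4-56 (0.679%), and +Lig4 by Igkv4-77 (1.82%), Igkv4-56 (0.896%), Igkv2-116 (0.755%), Igkv11-106 (0.677%) and Igkv11-114 (0.517%). In the sparse +Ku70 libraries Igkv11-114 stood first, with 4.35, 4.00 and 0% in clone A1_1 and 2.29, 0.817 and 3.57% in clone C1, so 1 of the 6 libraries had none. It was followed by Igkv4-56 (0.930%, 10 rows), Igkv4-77 (0.881%, 19 rows), Igkv4-83 (0.362%, 1 row) and Igkv11-106 (0.335%, 5 rows).

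The WT clones differed from each other in most segments tested. Of 109 segments tested between WT clone B and WT clone A, 61.5% passed, and 9 of 14 pseudogenes did, 3 higher in clone B (33.9% of all segments) and 6 lower (27.5%). Igkv12-40 (0.191, 0.221 and 0.145% in clone A, 0.640, 0.609 and 0.626% in clone B) was higher in clone B by 1.77 ± 0.19 on the log2 scale (SE, limma, adjusted p = 9.17e-05), Igkv2-116 by 1.38 and Igkv11-114 by 0.56. Igkv4-75 was lower by 3.29 ± 0.14 (limma, adjusted p = 8.85e-07). Igkv4-83 differed by -1.97, Igkv3-8 by -1.63, Igkv14-126 by -0.70, Igkv4-77 by -0.47 and Igkv4-56 by -0.44. The Igkv3-8 difference vanished with identical junctions counted once, at 0.0078 (limma, adjusted p = 0.983), and that of Igkv11-114 no longer passed, at 0.28 (adjusted p = 0.0738). The median over all segments was 0.23, and with libraries scaled to the median segment 4 remained lower, Igkv4-77 and Igkv4-56 no longer passing. Without any 1 of the clone B libraries 5 pseudogenes passed. Clone, sequencing run and depth change together between these groups and cannot be told apart.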

How the data were processed

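Per the labels, libraries were made by LAM-HTGTS, in which a primer at the Jk1 coding end is extended into the joined sequence, without enzyme blocking. The deposited lists give 1 row per read with junction and bait-end coordinates and the read positions of both alignments, counted here as rows. The deposited strand and sequence columns were used as well. Bowtie2 and mm10 stand in the submitters' processing notes. Library totals ran from 3 to 305846 rows.

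Segments came from the GRCm38 RefSeq list, which gives no strand. Rows were assigned to segments within 100 bp (Python 3.11.15, pandas 2.3.3, SciPy 1.17.1). Overlap was the bait end minus the prey start on the read plus 1. Group differences were tested by exact permutation within lineages (400 relabellings with 2 lineages, 20 with 1), and usage by limma 3.58.1 (R 4.3.3) on log2 (rows + 0.5) per 10000 rows for segments averaging at least 2 per 10000 rows, tested on simulated data first. Usage folds are on that scale, which understates changes of low segments. Named pseudogenes were the 10 most joined in WT, the 5 leading each other genotype, those past adjusted p 0.05, and those joined in 0 or 1 library. Functional segments were named as neighbours or where a result turned on one.

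No read name was shared among the 42 replicate pairs. Of 32 pairs that could be tested by chi-square, 4 did not differ, all in small Lig4-/- or +Ku70 groups, so all libraries were kept. Members and lists were chosen with earlier results of these data known. Alternatives covered the window, overlap, end distance, distinct junctions, strand source, filter, pseudocount, scaling, the 5 Igkv3 segments almost absent from clone B1, replicate block and left-out libraries.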

Additional observations from a re-analysis of the deposited data

Results flagged for a closer look

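The change in usage from WT to Ku70-/- differed between lineages for 2 pseudogenes, by the test of that difference itself (limma, 29.1% of 110 segments passed). Igkv4-75 had a log2 change of -0.15 in lineage A and 0.84 in lineage B, a difference of 0.99 ± 0.30 (SE, adjusted p = 0.0337), in a direction in which 19.1% of all segments passed. With identical junctions counted once it turned to -0.36 (adjusted p = 0.267), and with the 5 functional segments almost absent from clone B1 left out it was 0.89 (limma, adjusted p = 0.0611). Its levels were far apart to begin with, 1.16 to 1.32% of rows in WT clone A and 0.121 to 0.129% in WT clone B. Igkv11-114 had a change of 0.71 in lineage A and -0.25 in lineage B, a difference of -0.95 ± 0.29 (SE, adjusted p = 0.0338), where 10% of all segments passed. With identical junctions counted once it was -0.56 (limma, adjusted p = 0.0672). Its clone A1 libraries had 0.618, 0.722 and 0.533% against 0.303, 0.378 and 0.499% in WT clone A, and its clone B1 libraries 0.498, 0.460 and 0.479% against 0.578, 0.567 and 0.564% in WT clone B. Neither call was kept with the replicate block (limma, adjusted p = 0.0508 for Igkv4-75 and 0.0521 for Igkv11-114) or without any 1 of the WT clone B libraries (adjusted p from 0.0695 to 0.0842). Over 19 alternatives the values ran from -0.36 to 1.15 for Igkv4-75, with 10 keeping the call, and from -1.14 to -0.56 for Igkv11-114, with 11 keeping it. The median of this difference over all segments was 0.27. Clone, sequencing run and depth change together between the lineages and cannot be told apart.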

How the results depend on the processing

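Of 280 values that other settings gave for the 38 comparison results, 241 kept their direction and side of the threshold, as did 284 of 318 values with 1 library left out. The cause of the changes was not tested unless named. With identical junctions counted once, the share differences were -1.08 points for Ku70-/- against WT, 3.24 for the double mutant against Lig4-/-, 4.79 for +Lig4 against Lig4-/- and 0.120 for the double mutant against Ku70-/-. In that setting the double mutant differed from Ku70-/- by 2.86 in orientation, 0.794 in microhomology and -1.26 in insertion, +Ku70 from the double mutant by -7.74 in orientation, and pseudogenes from functional segments in WT microhomology by 0.0281. With rows inside the segment only, Ku70-/- against WT gave -1.05 in share and -0.507 in orientation (adjusted exact permutation p = 0.1), because opposite-orientation joins lie outside the segment. That setting turned pseudogene minus functional values to -0.128 (WT end share), -0.999 (double mutant orientation) and -0.538 (double mutant insertion). A 200-bp window gave a share difference of 0.498 for Ku70-/- against WT (adjusted exact permutation p = 0.0338). An overlap of at least 1 bp turned microhomology in the double mutant against Ku70-/- to 0.167. An overlap of at least 3 bp turned it to 0.978, and pseudogene minus functional microhomology to 0.103 in WT and 0.192 in +Lig4. An end distance of 20 bp turned the double mutant against Ku70-/- to -1.47. A distance of 3 bp turned pseudogene minus functional end share to -4.59 in WT and -2.01 in +Lig4, and measuring from the commonest WT position turned it to -0.0647 in WT. Strand taken from +Lig4 libraries, added after seeing the data, turned pseudogene minus functional orientation in WT to -0.00741. Microhomology over coding-orientation rows, also added then, changed no call.

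Same-numbered libraries deviated together in lineage A of Ku70-/- against WT (correlations 0.105, 0.237 and 0.151, each best with its own number) and in no other lineage or comparison, so the numbers pair those libraries only. With the replicate block the adjusted p of the share differences -4.57, 4.93 and 5.25 and of the Ku70-/- differences -25.3 in orientation, 19.3 in microhomology, -47.7 in insertion and -59.0 in end share became 0.0703, since 6 pairs allow no exact p below 0.0312. The block left 0 pseudogenes called for the lineage difference. Called pseudogenes numbered 19 without a filter and 7 with distinct junctions for Ku70-/- against WT (3 in the report), 2 with distinct junctions for the double mutant against Ku70-/- (1), 17 without a filter for WT clone B against A (9), and, for the lineage difference (2), 6 without a filter, 1 with distinct junctions and 1 with the 5 Igkv3 segments left out, a setting added after seeing the data. With distinct junctions Igkv3-8 turned to 0.0078 between WT clones and Igkv4-75 to -0.36 in the lineage difference.

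With 1 library left out, the Ku70-/- share difference ran from 0.324 to 0.614 and passed without Ku70-/- clone A1 replicate 2 (adjusted exact permutation p = 0.0112). Double mutant against Ku70-/- ran from -0.442 to 0.159 in share, -5.21 to 4.14 in orientation, -2.15 to 0.784 in microhomology and -0.684 to 2.46 in insertion, and +Ku70 against the double mutant from -2.95 to 21.0 in orientation. Pseudogene minus functional values ran from -0.0263 to 0.161 (WT end share), -0.293 to 0.456 and -1.09 to 2.11 (Ku70-/- insertion and end share), and -0.610 to 1.07, -0.540 to 0.803 and -2.12 to 0.877 (double mutant microhomology, insertion and end share). Called pseudogenes ran from 1 to 2 for the double mutant against Ku70-/- (2 without Ku70-/- clone A1 replicate 1), from 5 to 10 between WT clones (5 without each clone B replicate) and from 0 to 4 for the lineage difference. The last was 0 without any 1 of the WT clone B libraries or without replicate 2 or 3 of Ku70-/- clone B1, 1 without WT clone A replicate 3 or Ku70-/- clone B1 replicate 1, and 4 without Ku70-/- clone A1 replicate 3. Depth limits the Lig4-/- and +Ku70 libraries, where 3 rows of 490 are 0.612% and of 1818 are 0.165%.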
